A study of Mus musculus with 7 samples.

Results

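The cluster that the study named Macrophages_1 in the pancreas of i4F mice held 5839 of the 25643 i4F cells and of the 58473 cells of the whole series. Its cells were taken by that deposited cluster name, and their UMI counts (unique molecular identifiers, 1 for each captured transcript) were summed by mouse. All mice are labelled C57BL/6 and 2 months old, and each gave 1 pancreas library. The i4F line was made on the C57BL/6J.Ola.Hsd background. The 3 i4F mice were of the i4F-B line, in which a doxycycline-responsive cassette of the reprogramming factors Oct4, Sox2, Klf4 and Myc can be switched on in every tissue through the transactivator rtTA, and they drank doxycycline at 1 mg/ml in water with 7.5% sucrose for 7 days. The 2 WT mice were wild type and drank the same doxycycline and sucrose. The 2 caerulein mice were WT animals with a mild pancreatitis caused by injecting caerulein, a secretagogue, at 100 µg/kg 7 times a day on 2 days. The labels name caerulein as their only treatment. By the paper's methods, mice given caerulein were killed on day 4 after the first injection. The i4F and caerulein mice thus differed at once in genotype, in caerulein and in the time since treatment began. Whether they also differed in doxycycline and sucrose is not given in the sources used here. These factors cannot be told apart. The sample titles open with the letters AL for WT 1 and all i4F mice and with AM for WT 2 and both caerulein mice. What the letters stand for is not given in the sources used here, and whatever it is cannot be told apart from i4F against caerulein except through the 2 WT mice. The cassette is not limited to pancreatic cells, so that macrophages carry it too. rtTA RNA stood at 37.5, 43.6 and 49.4 CPM (UMIs of a gene when all UMIs of the sum are scaled to 1000000) in Macrophages_1 of the 3 i4F mice and at 0 to 1.54 CPM in the macrophage clusters of the other 4 mice.

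Macrophages of an injured tissue come from long-lived resident cells and from blood monocytes that enter and mature. Resident and mature macrophages make the complement component C1q from the 3 chain genes C1qa, C1qb and C1qc, and carry scavenger receptors such as Mrc1 and Lyve1. Freshly recruited Ly6c2-positive monocytes express Chil3, which encodes the chitinase-like protein Ym1, together with Vcan and Plac8, and lose these genes as they mature. Both kinds of transcripts were found in Macrophages_1, and its cells were described along a range between them.

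The mice contributed unequally. Macrophages_1 had 2921 cells in i4F 1, 2735 in i4F 2 and 183 in i4F 3. These were 29.8% (95% exact binomial interval 28.9 to 30.7), 33.3% (32.3 to 34.3) and 2.40% (2.07 to 2.77) of the cells of each library. Of the immune cells, meaning clusters labelled macrophages, NK_T, B lymphocytes and follicular B lymphocytes, they were 70.1%, 68.9% and 6.47%. The mean share of all cells was 21.8% ± 16.9 (SD, n = 3), so the i4F 3 library stood apart. Some of the counts and mean differences that it enters are also given below without it. Intervals cover counting error only. The median cell had 3032, 2284 and 2120 UMIs in i4F 1, 2 and 3, and cells under 500 genes made up 7.46%, 6.18% and 25.7%. Cell barcodes shared between i4F libraries numbered 18 to 23 per pair, with at most 1 of them in macrophage clusters of both. Each sample was 1 mouse, so that a count of cells does not add replicates.

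The label fitted the markers. Csf1r, the receptor that macrophages need to survive, stood at 310, 218 and 436 CPM in Macrophages_1 of i4F 1, 2 and 3 and at 83.4, 43.7 and 52.7 CPM in the other immune clusters together. C1qa stood at 5925, 3385 and 5287 CPM against 693, 250 and 745 CPM. In each mouse Macrophages_1 was the higher. The counterparts of other cell types were low: Igkc, the immunoglobulin kappa constant gene of B cells, stood at 41.2, 166 and 226 CPM against 42299, 48380 and 50282 CPM, and the neutrophil gene S100a9 at 54.7, 458 and 4.11 CPM against 5522, 15712 and 704 CPM. The summed level of the 10 neutrophil markers was 209, 1769 and 41.1 CPM in Macrophages_1, and 90283, 137796 and 283280 CPM in Macrophages_2, a cluster whose leading genes were thus those of neutrophils although it is named for macrophages. B cell markers summed to 13.9, 8.42 and 65.8 CPM, and T and NK cell markers to 2.22, 5.97 and 12.3 CPM.

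**Figure D1:**
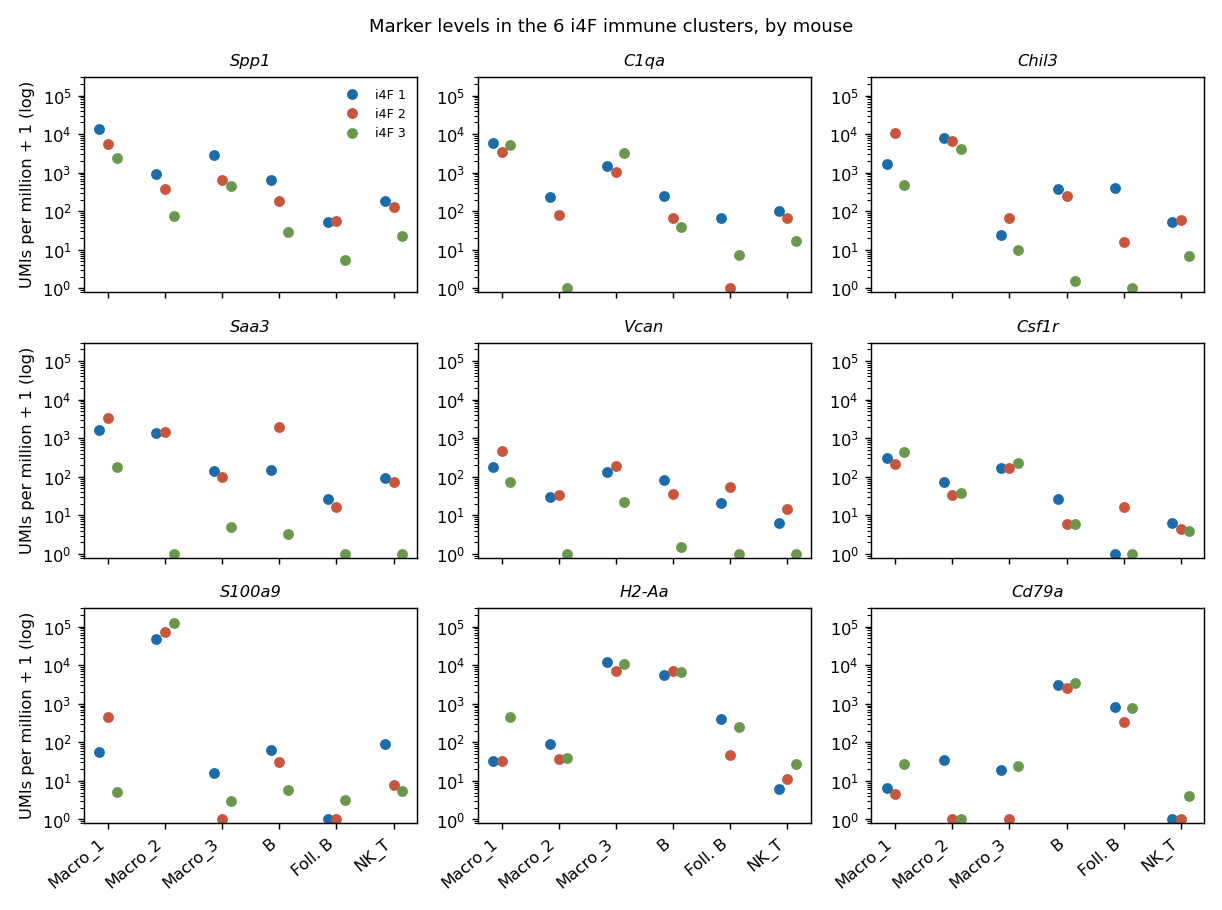
CPM plus 1 (log axis) of 9 genes in the 6 immune clusters of the i4F pancreas, with 1 point for each mouse. Csf1r and C1qa lie highest in Macrophages_1 in each mouse, S100a9 in Macrophages_2, and H2-Aa in Macrophages_3 and the B lymphocytes, while Chil3 is high in both Macrophages_1 and Macrophages_2.

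Against the other immune clusters, Macrophages_1 held more RNA of complement, lipid, lysosome and chemokine genes and less of MHC class II. Since clusters are made from these same counts, these differences describe the cluster and carry no test. A gene was counted where its level, on the scale log2(CPM + 10), differed at least 2-fold in the same direction in each of the 3 mice. That held for 331 of 24578 genes as higher (1.35%) and 321 as lower (1.31%).

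Of 18 macrophage identity genes, 13 were higher by this rule and none was lower, with a median log2 difference of 2.39 against -0.01 over all genes. Pf4, the chemokine platelet factor 4, had the largest mean difference of those ranked, with 2755, 3633 and 1715 CPM against 171, 75.6 and 121 CPM, a log2 difference of 4.36 ± 0.92 (SD, n = 3). Spp1, which encodes osteopontin, stood at 13790.1, 5612 and 2394 CPM against 1439.6, 289 and 119.8 CPM. Every mouse showed these differences, while the Spp1 level itself was highest in i4F 1 and lowest in i4F 3. Arg1, the arginase of wound-type macrophages, stood at 2969, 4214 and 543 CPM against 256, 267 and 68.4 CPM. Nos2, the inducible nitric oxide synthase, stood at 3.74, 13.7 and 0 CPM. Of the 20 chemokines and chemokine receptors 12 were higher and 1, Ccl5, was lower. Ccl2, which draws CCR2-positive monocytes, stood at 3687, 5387 and 4970.1 CPM, and Cxcl2, which draws neutrophils, at 23254, 29599.8 and 22708 CPM. In the other immune clusters together Ccl2 stood at 455, 363 and 532 CPM and Cxcl2 at 10464, 7836 and 2363 CPM. The 20 genes summed to 49759, 59023 and 53263 CPM in Macrophages_1 and to 63732, 33816 and 15206 CPM in Macrophages_2, so in i4F 1 Macrophages_2 held more.

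Among the 19 lipid and lysosome genes 13 were higher. Apoe, the lipid carrier, reached 28317, 10712 and 15213 CPM, and Trem2, a lipid-sensing receptor, 712, 387 and 494 CPM. Of the 7 MHC class II genes 6 were lower. H2-Aa, the chain that presents peptides to CD4 T cells, stood at 32.5, 32.4 and 442 CPM in Macrophages_1. In Macrophages_3, also named for macrophages, it stood at 11781, 7114 and 10544 CPM. The 7 class II genes summed to 473, 420 and 3570 CPM in Macrophages_1 and to 68947, 42202 and 61177 CPM in Macrophages_3. Cells with a class II UMI made up 44.2%, 31.2% and 77.0% of Macrophages_1. Macrophages_1 of i4F 3 thus held the most, and there dendritic cell markers were also higher, at 165 CPM in sum against 9.10 and 10.9 CPM.

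Of the 5 markers by which the cluster was known, 4 met the rule and Chil3 did not. Chil3 stood at 1703, 10725 and 471 CPM in Macrophages_1 against 1066, 1513 and 27.7 CPM in the other immune clusters, where Macrophages_2 held it at 8108, 6446 and 4185 CPM. Cells with at least 1 Chil3 UMI made up 53.7%, 79.8% and 21.3% of Macrophages_1 at the median depths given above. In the B lymphocyte cluster they made up 4.19%, 4.66% and 0.0775% at median depths of 627, 467 and 1039 UMIs. For Spp1 the corresponding shares were 89.9%, 73.4% and 23.0% against 18.8%, 9.91% and 1.71%, so a part of the Spp1 counts was also found in cells that should lack the gene.

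Each cell was then placed by its Chil3 fraction, the Chil3 UMIs divided by the sum of Chil3, C1qa, C1qb and C1qc UMIs, in cells with at least 5 such UMIs. Cells at 0.2 or less were called the C1q end, cells at 0.8 or more the Chil3 end, and the others the middle. This placed 2687, 2521 and 106 cells, or 92.0%, 92.2% and 57.9% of Macrophages_1. The positions are ranges of a score and not cell types.

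The 3 mice lay at different places on the range. In i4F 1, 75.9% of placed cells (exact interval 74.2 to 77.5) were at the C1q end, 403 cells (13.7% to 16.4%) in the middle and 9.12% (8.06 to 10.3) at the Chil3 end. In i4F 2 the shares were 26.8% (25.1 to 28.5), 28.4% (26.6 to 30.2) and 44.9% (42.9 to 46.8). In i4F 3 they were 84.0% (75.6 to 90.4), 4.72% (1.55 to 10.7) and 11.3% (5.99 to 18.9). So i4F 2 alone held most of its cells outside the C1q end, and the means were 62.2% ± 30.9, 16.03% ± 11.9 and 21.8% ± 20.03 (SD, n = 3). Cells within 0.05 of the lower limit numbered 180, 132 and 0, and of the upper limit 28, 135 and 0. After thinning each cell to 1000 UMIs, which left out 276, 203 and 52 shallower cells, the Chil3 end held 7.78%, 45.0% and 4.55%.

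**Figure D2:**
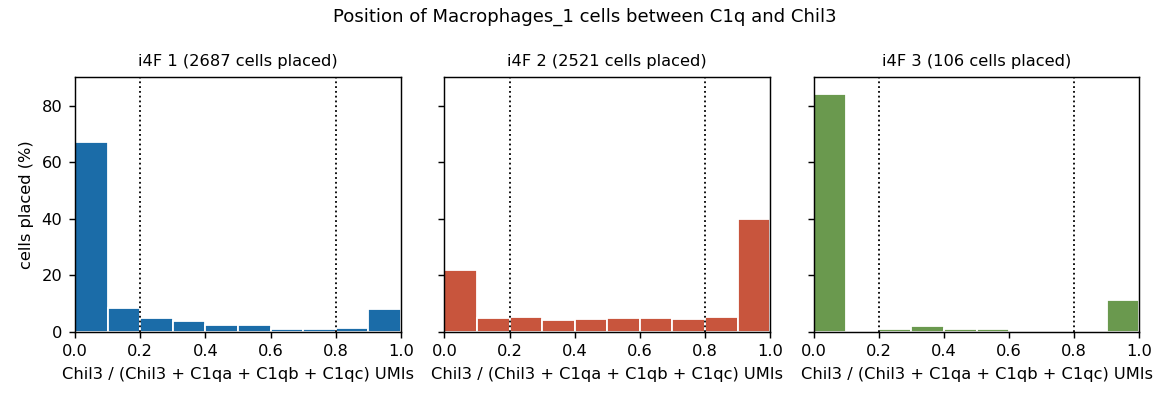
Share of placed Macrophages_1 cells (%) in 10 equal bins of the Chil3 fraction, 1 panel for each i4F mouse, with dotted lines at the limits 0.2 and 0.8. Cells crowd at both ends, and i4F 2 alone has its highest bar at the Chil3 end (39.7% of cells above 0.9), against 67.1% and 84.0% of cells below 0.1 in i4F 1 and i4F 3.

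Cells with intermediate fractions were found throughout in i4F 1 and i4F 2. Cells with no Chil3 UMI made up 44.8% and 15.9% of those placed, and cells with no C1q UMI 5.84% and 31.7%. Placed cells with UMIs of both Chil3 and a C1q chain made up 49.4%, 52.3% and 7.55% in i4F 1, 2 and 3. Cells with a C1q chain UMI also made up 24.7%, 15.5% and 7.98% of the B lymphocyte cluster, at the median depths given above. In Macrophages_1 they made up 90.9%, 65.6% and 60.1%. Whether free RNA or another source gave the C1q UMIs of B lymphocytes was not tested. Holding both is therefore not read as expression of both by 1 cell. A second score used other genes, 10 of monocytes (such as Ly6c2 and Plac8) and 10 of macrophages (such as Apoe, Trem2 and Mrc1). It was the share of the monocyte genes in the UMIs of both lists. Its median rose from 0.111 at the C1q end through 0.273 in the middle to 0.453 at the Chil3 end in i4F 1, from 0.274 through 0.446 to 0.680 in i4F 2, and from 0.0560 through 0.460 to 0.750 in i4F 3. Across cells of one library, which share its free RNA and differ in depth, Spearman's rho between the scores was 0.430 over 2678 cells, 0.515 over 2512 and 0.681 over 103. The monocyte genes include Saa3 and Vcan, markers by which the cluster was known. Both lists were chosen with earlier results of these data known, so agreement of the scores is a description and no test. Cells at the Chil3 end were shallower, with medians of 2209, 1968 and 2486 UMIs against 3485, 3275 and 2847 at the C1q end.

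In the macrophage clusters of the other mice most placed cells were at the C1q end. Fewer of their cells could be placed than in i4F 1 and 2, namely 77.0% and 74.8% in the caerulein mice and 46.2% and 78.6% in the WT mice, so most cells of WT 1 have no position. In the caerulein mice 86.9% and 85.4% of placed cells were at the C1q end and 6.31% and 5.38% at the Chil3 end. In the WT mice 95.8% (of 48 cells) and 99.8% (of 404) were at the C1q end and 4.17% and 0.248% at the Chil3 end, and 0 of 48 and 0 of 404 were in the middle, which allows shares of up to 7.40% and 0.909% (exact binomial interval). The C1q end share of each i4F mouse was below that of each caerulein mouse, and its Chil3 end share was above. The i4F shares are of Macrophages_1 alone, without Macrophages_2 and Macrophages_3, while those of the other mice are of all their macrophage clusters. Shares over all i4F macrophage clusters were not tested. By a two-sided exact permutation test over mice, the shares at the C1q end and at the Chil3 end each gave p = 0.2 against the caerulein mice and p = 0.2 against the WT mice, the smallest p that 3 against 2 mice allow, so no difference in shares could pass 0.05. Adjusted over 6 comparisons (Benjamini-Hochberg) these exact p-values were 0.24, and the middle share against caerulein gave p = 0.6 by the same exact test. The difference in the Chil3 end was 15.9 percentage points against caerulein, and without i4F 2 the i4F mice were at 9.12% and 11.3%, still above 5.38% and 6.31%, with a difference of 4.38 points. The difference in the C1q end against caerulein was -23.9 points and -6.22 points without i4F 2. The separation of the mice depended on how cells were placed. After thinning, i4F 3 was at 89.8% and caerulein 2 at 88.7% of the C1q end (exact p = 0.4), and with C1qa alone or with ends at 0.1 and 0.9 the exact p was 0.6. Against WT the Chil3 end differed by 19.6 points and the C1q end by -35.6 points, and without i4F 2 by 8.01 and -17.9 points. The Chil3 end differed by 2.72 points (exact p = 0.8) when cells were placed by the 10-gene lists, where the C1q end differed by -23.0 points (exact p = 0.6). After thinning, i4F 3 and WT 1 were both at 4.55% of the Chil3 end (exact p = 0.4).

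Between the ends, 12 of 16 inflammatory monocyte genes were higher toward Chil3, and 7 of 18 macrophage identity genes, 7 of 12 cell cycle genes and 5 of 19 lipid and lysosome genes toward C1q. The ends were cut from the same counts, so these are descriptions with no test, and C1qa, C1qb, C1qc and Chil3 differ by construction. By the 2-fold rule in each of the 3 mice, 63 of 22183 genes were higher at the Chil3 end (0.284%) and 132 at the C1q end (0.595%). In i4F 3 the Chil3 end was 12 cells, where 1 UMI was worth 34.9 CPM, as Saa3 shows with its single UMI. Counted in i4F 1 and 2 alone, 92 and 163 genes met the rule, among them the same number of inflammatory monocyte genes (12) and of lipid and lysosome genes (5), 8 macrophage identity genes and 9 cell cycle genes.

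The 16 inflammatory monocyte genes had a median log2 difference of 2.31 against -0.02 over all genes, and of 1.87 without i4F 3. Chil3 itself is among the 12 that were higher. In sum the 16 genes stood at 10574, 28005 and 5194 CPM in Macrophages_1 of i4F 1, 2 and 3. They stood at 32518, 35837 and 34672 CPM in Macrophages_2, the cluster led by neutrophil markers. The list is thus not particular to monocytes in these data. Lcn2, which encodes the iron-chelating protein lipocalin 2, stood at 375, 2157 and 139.5 CPM at the Chil3 end and at 45.2, 157 and 0 CPM at the C1q end. Slpi, an inhibitor of leukocyte proteases, stood at 2537, 4141 and 2965 CPM against 463, 493 and 96.3 CPM. Ly6c2, the surface antigen that marks classical monocytes, stood at 297, 689.5 and 349 CPM against 37.4, 139 and 3.11 CPM. In each of the 3 mice these genes were higher at the Chil3 end. Plac8, Hp (haptoglobin) and Vcan (versican) were likewise higher, with mean log2 differences of 3.33, 2.96 and 2.16, and of 2.37, 2.12 and 1.64 without i4F 3. Il1r2, the decoy receptor for interleukin 1, stood at 603, 1714 and 34.9 CPM against 35.0, 218 and 6.21 CPM. Il1b, the interleukin 1 beta gene, stood at 18584, 15503 and 15278 CPM against 7304, 5865 and 4018 CPM. Ccr2, the receptor by which monocytes follow Ccl2, was at 177, 159 and 139.5 CPM against 76.8, 74.7 and 52.8 CPM.

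S100a8, a calcium-binding protein of neutrophils and monocytes, was at 690.4, 2488 and 69.8 CPM at the Chil3 end and 60.9, 139.7 and 3.11 CPM at the C1q end. Of the 10 neutrophil markers it alone met the rule, and in i4F 1 and 2 alone 2 markers did. Lcn2 and Cd177 were counted in the inflammatory monocyte list and not among these 10. Pglyrp1, in neither list, also met the rule. It stood at 39.6, 51.8 and 209 CPM at the Chil3 end and at 5.03, 4.65 and 3.11 CPM at the C1q end. S100a9 stood at 175, 778 and 0 CPM at the Chil3 end and at 41.5, 67.0 and 0 CPM at the C1q end. Retnlg stood at 4.96, 14.0 and 0 CPM and Cxcr2 at 3.30, 12.7 and 0 CPM at the Chil3 end. Camp was at 0 at both ends in every mouse. Retnlg, Ngp, Cxcr2, Ltf, Camp and Ly6g stood at 14.0 CPM or less at the Chil3 end of each mouse, while Csf3r stood at 14.9, 16.03 and 69.8 CPM and Mpo at 0, 54.7 and 0 CPM. In Macrophages_2 Retnlg stood at 10539, 17587 and 5044 CPM. The 10 markers summed to 892, 3375 and 139.5 CPM at the Chil3 end and to 131, 237 and 15.5 CPM at the C1q end, so their sum moved with the range in every mouse, and the part of neutrophil RNA in the range was not tested.

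At the C1q end 7 of 18 macrophage identity genes were higher, namely Maf, Mrc1, Cd163, Lyve1, Folr2, Ms4a7 and Cd81. Lyve1, the hyaluronan receptor of resident macrophages, stood at 282, 430.1 and 522 CPM at the C1q end and at 1.65, 4.93 and 0 CPM at the Chil3 end. Ccl8, a chemokine, stood at 249.3, 409.6 and 1593 CPM against 6.61, 4.52 and 0 CPM, and Folr2, a folate receptor, at 243, 288 and 534 CPM against 21.5, 11.5 and 0 CPM. Mrc1, the mannose receptor CD206, stood at 528, 626 and 966 CPM against 109, 54.7 and 69.8 CPM. These 4 genes were nearly lost at the Chil3 end or fell severalfold in each mouse. Gdf15, Cbr2, Fcna and Fcrls had mean log2 differences of -4.52, -4.32, -4.21 and -3.87. All 4 had 0 UMIs at the Chil3 end of i4F 3, and without that mouse the means were -3.54, -3.70, -3.61 and -3.16. Csf1r differed less and stood at 323, 267 and 469 CPM at the C1q end and 256, 162 and 174 CPM at the Chil3 end.

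Of the 19 lipid and lysosome genes 5 were higher at the C1q end by the rule, namely Fabp5, Cd63, Ctsd, Ctsb and Syngr1. Spp1 and Arg1 were not among the genes that met it. Spp1 stood at 14703, 6565 and 3319.7 CPM at the C1q end and 8609, 3994 and 105 CPM at the Chil3 end, and Arg1 at 2925, 4363 and 804 CPM against 2616, 3333 and 34.9 CPM. In i4F 1 and 2, which hold nearly all the cells, Arg1 was thus spread over the range. Saa3, an acute-phase serum amyloid gene, stood at 1200.0, 2661 and 90.1 CPM against 3817, 3944 and 34.9 CPM, and so differed in direction between mice.

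**Figure D3:**
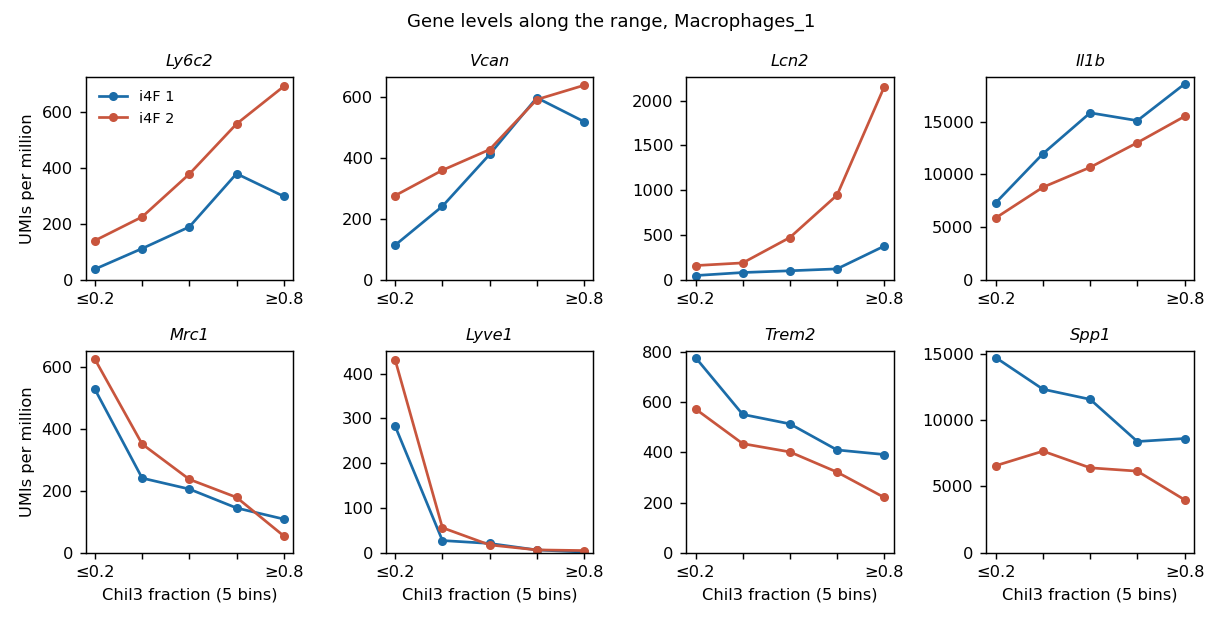
CPM of 8 genes in 5 equal bins of the Chil3 fraction in i4F 1 and i4F 2 (i4F 3 has under 20 cells in each bin but the first and is not drawn). Ly6c2, Vcan, Lcn2 and Il1b lie higher toward the Chil3 end, with the 4th bin above the 5th for Ly6c2 and Vcan in i4F 1, and Mrc1, Lyve1 and Trem2 fall away from the C1q end.

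Some of these genes are given bin by bin along the range. Along the 5 bins of i4F 2, Ly6c2 stood at 139, 224, 377, 556 and 689.5 CPM and Mrc1 at 626, 352, 238, 179 and 54.7 CPM. In i4F 1 Ly6c2 stood at 37.4, 111, 188, 378 and 297 CPM and Mrc1 at 528, 242, 206, 145 and 109 CPM. Lyve1 instead dropped at once, from 282 to 27.3 CPM in i4F 1 and from 430.1 to 56.0 CPM in i4F 2 between the first bin and the second.

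Cells with mitotic transcripts lay mostly at the C1q end. Cells with at least 2 UMIs of 8 mitotic genes (Mki67, Top2a and 6 others) made up 13.7%, 12.7% and 11.2% of the C1q end in i4F 1, 2 and 3. In the middle they made up 2.98% and 2.24% in i4F 1 and 2, and at the Chil3 end 0.816% and 1.77%. With every cell thinned to 1000 UMIs the C1q end held 5.84%, 4.72% and 5.06% and the Chil3 end 0 of 186 cells, which allows up to 1.96% (exact binomial interval), and 0.384%, so the order was kept at equal depth. Of the 12 cell cycle genes 7 were higher at the C1q end in all mice, among them Mki67 at 89.4, 85.2 and 93.2 CPM against 23.1, 28.8 and 0 CPM.

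Promoter sequence is shown for 5 genes that the comparisons turn on: Spp1, a leading marker, Lcn2 and Slpi from the Chil3 end, and Isg15 and Ifit1 from the interferon response that is compared with caerulein mice below. Each line is the 250 bases upstream of a RefSeq start (GRCm38.p6), 5′ to 3′ on the gene's strand. Spp1 was read from chr5:104434861-104435110 on the plus strand, Lcn2 from chr2:32387740-32387989 on the minus strand, Slpi from chr2:164356508-164356757 on the minus strand, Isg15 from chr4:156200819-156201068 on the minus strand and Ifit1 from chr19:34640639-34640888 on the plus strand. Capitals mark 3 motifs searched on both strands: GAGGAAGT, bound by the macrophage factor PU.1 and other ETS factors, TTGCNNAA, bound by C/EBP factors, and the interferon-stimulated response element (ISRE), whose 3 matches in Isg15 overlap.
Spp1: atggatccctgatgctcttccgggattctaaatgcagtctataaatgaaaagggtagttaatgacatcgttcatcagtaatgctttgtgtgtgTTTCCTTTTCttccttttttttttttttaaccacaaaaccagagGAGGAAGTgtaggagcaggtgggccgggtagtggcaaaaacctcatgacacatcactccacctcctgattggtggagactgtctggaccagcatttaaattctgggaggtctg
Lcn2: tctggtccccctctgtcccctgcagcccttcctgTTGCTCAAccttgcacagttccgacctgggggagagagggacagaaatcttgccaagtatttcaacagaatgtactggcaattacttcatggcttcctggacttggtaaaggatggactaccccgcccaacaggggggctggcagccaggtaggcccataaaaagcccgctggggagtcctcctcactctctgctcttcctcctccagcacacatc
Slpi: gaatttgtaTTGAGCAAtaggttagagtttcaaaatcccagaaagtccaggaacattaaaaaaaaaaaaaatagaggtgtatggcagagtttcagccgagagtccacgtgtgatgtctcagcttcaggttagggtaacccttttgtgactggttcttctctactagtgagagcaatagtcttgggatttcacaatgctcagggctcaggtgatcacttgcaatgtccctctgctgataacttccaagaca
Isg15: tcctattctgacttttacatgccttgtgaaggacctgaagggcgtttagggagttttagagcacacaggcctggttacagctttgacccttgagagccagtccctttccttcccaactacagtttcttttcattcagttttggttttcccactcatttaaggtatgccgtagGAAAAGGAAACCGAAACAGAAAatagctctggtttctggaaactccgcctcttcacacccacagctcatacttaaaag
Ifit1: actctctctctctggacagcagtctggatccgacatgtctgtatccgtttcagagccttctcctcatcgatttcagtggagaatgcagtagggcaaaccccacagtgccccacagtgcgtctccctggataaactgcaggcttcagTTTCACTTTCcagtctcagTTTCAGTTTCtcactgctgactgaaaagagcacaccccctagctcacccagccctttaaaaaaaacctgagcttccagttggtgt

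Of all 32851 RefSeq windows of this length 2.44% held GAGGAAGT, 9.56% TTGCNNAA and 2.98% the ISRE. The genes higher at the Chil3 end had 66 windows (51 of the 63 genes matched), of which 13 or 19.7% held TTGCNNAA, Lcn2 and Slpi among them, and the genes higher at the C1q end had 135 windows (102 of 132 matched), of which 9 or 6.67% did. For GAGGAAGT the shares were 4.55% and 6.67%. All 5 windows printed above hold a match. Windows read for Chil3, Vcan, C1qb, Folr2, Ccl8, Slc2a1, Irf7, Ifit2, Oasl1 and Oasl2 held none of the 3 motifs. Plac8 had a window with none and a window with TTGCNNAA. A match describes letters in the window and does not show a bound site.

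Against the caerulein mice the question was how macrophages of the reprogramming pancreas differ from those of an injured one. The cells were Macrophages_1 in i4F mice and all clusters named macrophages in caerulein mice (10455 cells), named by the authors in separate clusterings. UMI sums per mouse were tested with edgeR's quasi-likelihood test over 12274 genes, and fold changes are log2 with the standard error. It called 472 genes higher in i4F (3.85%) and 175 lower (1.43%) at an adjusted p under 0.05. Without i4F 3 it called 687 and 298, without i4F 1 156 and 47, without i4F 2 59 and 6, and without either caerulein mouse 1 and 1, so the number of calls rests on having both caerulein mice. With the title letters as a term of the fit, added after seeing the data, edgeR called 0 genes, with 1623 at an unadjusted p under 0.05. That fit rests on the difference between the 2 WT mice, 1 of each letter code. In these sums fewer cells of a kind and less RNA per cell of that kind cannot be told apart.

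All 10 interferon response genes were higher in i4F Macrophages_1 than in caerulein macrophages, against the 3.85% of all genes, with a median log2 difference of 2.24 against 0.01. Isg15, an interferon-induced ubiquitin-like protein, stood at 667, 727 and 685 CPM in i4F and 137 and 172 CPM in caerulein mice, a log2 difference of 2.21 ± 0.23 (SE, adjusted p = 0.00507). Irf7, a transcription factor that amplifies type I interferon, stood at 269, 611 and 129.5 CPM against 31.4 and 27.5 CPM, with 3.59 ± 0.66 (adjusted p = 0.0216). Ifit1, an antiviral RNA-binding protein whose promoter is printed above, stood at 49.1, 41.3 and 84.3 CPM against 14.8 and 20.7 CPM, with 1.67 ± 0.29 (adjusted p = 0.0193). In each of these genes every i4F mouse was above both caerulein mice, which held for 19.2% of all genes. Oasl1, Oasl2, Rsad2, Ifit2, Ifit3 and Mx1 had log2 differences of 1.81 to 2.91. All 10 were also called among C1q end cells alone and without i4F 3, 7 without i4F 1 and 6 without i4F 2. Without either caerulein mouse edgeR called 0, with all 10 at an unadjusted p under 0.05 and medians of 2.35 and 2.17. With the title letters as a term it also called 0, with 7 at an unadjusted p under 0.05 and a median of 2.06. Isg15 stood at 681 and 635 CPM in the WT mice, and Ifit1 at 104 and 129.5 CPM, above every i4F mouse. Against WT 2 of the 10, Irf7 and Oasl2, were higher and 1, Ifit2, lower, against 3.63% and 4.67% of all genes. Of the 9 windows found for this list, 4 (44.4%) held the ISRE, for Isg15, Ifit1, Ifit3 and Rsad2.

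Of 14 cytokine genes 4 were higher in the same comparison, Il1a, Il6, Il1rn and Tnf, against 3.85% of all genes, and none was lower. Il1a, the membrane-bound interleukin 1, stood at 1009.6, 1143 and 786 CPM in i4F against 131 and 68.9 CPM in caerulein mice, with 3.31 ± 0.54 (adjusted p = 0.0162). Tnf stood at 1021, 785 and 903 CPM against 238 and 244 CPM, with 1.94 ± 0.23 (adjusted p = 0.00795). Each i4F mouse was above both caerulein mice for both, which held for 19.2% of all genes. Against WT, edgeR called Il1a and Il1rn higher and did not call Tnf or Il6. Among C1q end cells Tnf stood at 1038, 797 and 1183 CPM in i4F and 1588 and 1020 CPM in WT mice. Il6 there stood at 32.2, 50.3 and 12.4 CPM in i4F and 49.4 and 29.2 CPM in WT mice. Of the 16 inflammatory monocyte genes 5 were called, among them Ly6c2, Plac8, Hp and Ifitm6, against 3.85% of all genes higher, and none was lower. Plac8 stood at 374, 826 and 730.0 CPM against 81.6 and 87.9 CPM, with 2.95 ± 0.52 (adjusted p = 0.0195), and Ly6c2 at 71.6, 405 and 96.6 CPM against 18.6 and 21.7 CPM, with 3.34 ± 0.77 (adjusted p = 0.0413). These lie along the range described above, where i4F 2 held the most Chil3 end cells, and without i4F 2 edgeR called 0 of the 16, with 8 at an unadjusted p under 0.05 and a median log2 difference of 1.115 against 2.90 with it. It also called 0 with the replicate number as a block (11 at an unadjusted p under 0.05). Chil3 itself, at 1703, 10725 and 471 CPM against 529 and 678 CPM, was not called (adjusted p = 0.303), nor was C1qa (adjusted p = 0.758).

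Of 19 lipid and lysosome genes 4 were lower, Fabp5, Ctsd, Syngr1 and Abcg1, against 1.43% of all genes, and 1, Cd9, was higher, against 3.85%. Ctsd, the lysosomal protease cathepsin D, stood at 5142, 2802 and 2901 CPM in i4F and 9037 and 11635 CPM in caerulein mice, with -1.46 ± 0.31 (adjusted p = 0.0318). Fabp5, a fatty acid carrier, stood at 997, 445 and 939.7 CPM against 2329 and 3328 CPM, with -1.80 ± 0.35 (adjusted p = 0.0246). The i4F and caerulein mice did not overlap in either gene, which in this direction held for 23.7% of all genes. Without i4F 2 or either caerulein mouse edgeR called 0 of the 19 as lower, with 9, 10 and 7 at an unadjusted p under 0.05 in either direction. Of 12 glycolysis genes 2 were higher, against 3.85% of all genes. Slc2a1, the glucose transporter GLUT1, stood at 129, 116 and 74.0 CPM against 28.7 and 25.9 CPM, with 2.04 ± 0.31 (adjusted p = 0.0122), and Hk2, the first enzyme of glycolysis, at 61.3, 53.6 and 69.9 CPM against 22.7 and 15.5 CPM, with 1.67 ± 0.25 (adjusted p = 0.0124). Spp1 was at 6395 and 7967 CPM in caerulein mice and was not called (adjusted p = 0.959).

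Among the 10 genes of largest change in each direction, Upp1 (uridine phosphorylase), AA467197, Ly6a, Slfn4 and Oas3 were higher in i4F, though with the title letters as a term none was called and Slfn4 changed sign. The Slfn4 call was also lost by DESeq2 (adjusted p = 0.161), with the replicate number as a block (0.0772), with all i4F macrophage clusters (0.127), and without i4F 1, i4F 2 or either caerulein mouse (0.0868 to 0.360). AA467197 stood at 494, 691 and 434 CPM against 19.9 and 24.0 CPM, with WT 1 at 135 CPM and WT 2 at 21.0 CPM, so that the WT mouse with the caerulein mice's title letters lay at their level. With those letters as a term its log2 difference was 2.00 ± 0.56 (adjusted p = 0.215 by edgeR). Upp1 stood at 41.5, 113 and 35.0 CPM against 3.98 and 2.13 CPM, with 4.37 ± 0.58 (adjusted p = 0.0106). Retnla, a resistin-like gene, was also among them, at 6.37, 59.6 and 111 CPM against 1.58 and 1.35 CPM, with WT mice higher still at 184 and 1225 CPM. Reg3a, Reg3d and Reg2 were among them too, secreted proteins that acinar cells make. Reg2 stood at 498, 1414 and 8429 CPM in Macrophages_1, but at 5132, 7287 and 18995 CPM in the B lymphocyte cluster, and 67.5%, 92.1% and 100.0% of Macrophages_1 cells held a Reg2 UMI against 65.8%, 94.8% and 100.0% of B lymphocytes. Reg2 counts are therefore not read as macrophage expression, and the part of free RNA or of doublets in them was not tested. Lower in i4F were Gm2663, Gm34084, Nme4, Syngr1, Ckb, Tmem86a, Susd3, Fabp5, Tnfaip8l2 and Cebpzos. Gm2663 stood at 1.92, 2.58 and 0 CPM against 128 and 74.0 CPM, and Ckb, a creatine kinase, at 123, 40.6 and 105 CPM against 389 and 364 CPM. Whether the Gm2663 counts came from macrophages, free RNA or doublets was likewise not tested.

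**Figure D4:**
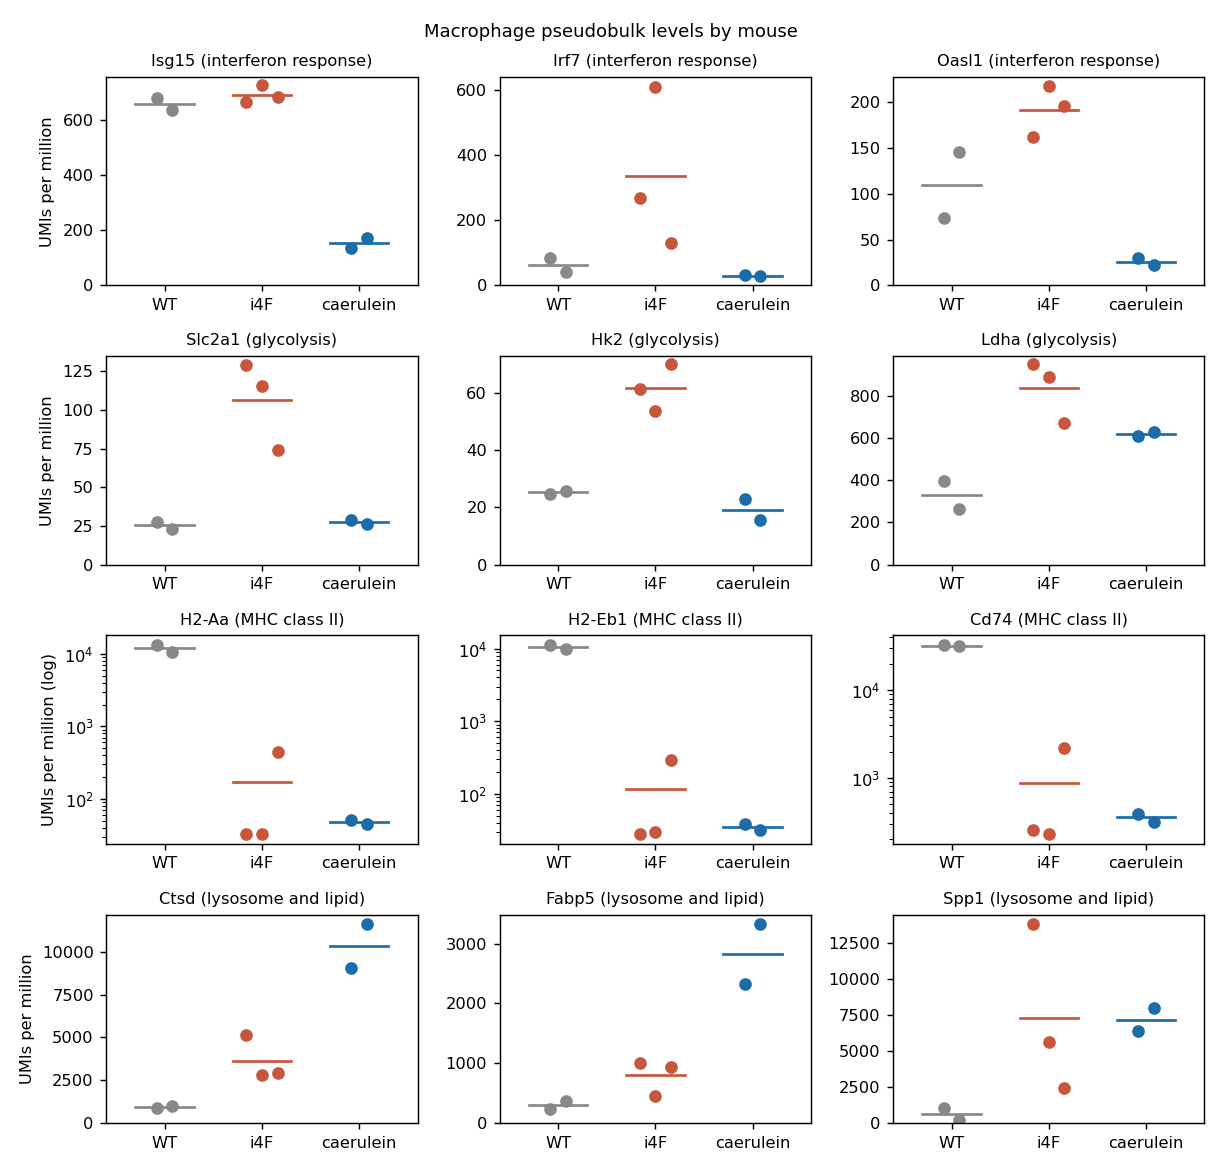
CPM in macrophage sums of each mouse, with a bar at the group mean, for WT, i4F (Macrophages_1) and caerulein mice, in rows of interferon, glycolysis, MHC class II (log axis) and lysosome and lipid genes. The i4F points lie above both caerulein points for Isg15, Irf7 and Oasl1, and above both the WT and the caerulein points for Slc2a1 and Hk2, and below the WT points for all 3 class II genes.

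Against the WT mice the question was how these cells differ from macrophages of an intact pancreas under the same doxycycline. The WT macrophage clusters held 104 and 514 cells. edgeR called 446 genes higher in i4F (3.63%) and 573 lower (4.67%). Without i4F 3 it called 727 and 911, without i4F 1 27 and 43, without i4F 2 49 and 73, without WT 1 194 and 395, without WT 2 122 and 209, and without caerulein 1 or 2, whose spread enters the fit, 145 and 241 or 156 and 225. With the title letters as a term it called 111 and 214, among them 1 of the 12 glycolysis genes, 0 of the 19 lipid and lysosome genes (11 at an unadjusted p under 0.05) and all 7 MHC class II genes. Both contrasts use the same i4F mice.

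Glycolysis and hypoxia genes were higher in i4F, 10 of 12 against 3.63% of all genes, with a median log2 difference of 1.48 against 0.00 over all genes. Slc2a1 stood at 27.7 and 23.1 CPM in WT mice, with 2.25 ± 0.34 (adjusted p = 0.0100), and every i4F mouse lay above both WT mice, which held for 17.3% of all genes. Pkm, the pyruvate kinase, stood at 1621, 2516 and 1079.6 CPM in i4F against 521 and 347 CPM, with 2.13 ± 0.40 (adjusted p = 0.0193), and Ldha, the lactate dehydrogenase, at 951, 889.7 and 670.4 CPM against 395 and 261 CPM, with 1.47 ± 0.29 (adjusted p = 0.0224). Of the 12, 10 were called without i4F 3, 1 without i4F 1, 2 without i4F 2, 1 without WT 2 and 7 of the 11 tested among C1q end cells. With Macrophages_2 and Macrophages_3 added edgeR called 0, with 10 at an unadjusted p under 0.05 and a median of 1.40.

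Of the lipid and lysosome genes 9 of 19 were higher than in WT, against 3.63% of all genes, and none was lower. Spp1 stood at 1042 and 231 CPM in WT mice, with 3.67 ± 0.86 (adjusted p = 0.0344), Ctsd at 874 and 985 CPM, with 2.07 ± 0.34 (adjusted p = 0.0138), and Gpnmb, a lysosomal glycoprotein, at 133, 58.0 and 185 CPM in i4F against 19.97 and 10.2 CPM, with 3.19 ± 0.53 (adjusted p = 0.0144). Ctsd and Fabp5 thus lay between the WT and the caerulein levels in all 3 i4F mice. Of the 19, 2 were called without i4F 1, 5 without i4F 2 and 0 without WT 2 or with all i4F macrophage clusters (12 and 10 at an unadjusted p under 0.05). Of 20 chemokines and receptors 7, Ccl2, Ccl6, Ccl9, Cxcl1, Cxcl2, Cxcl3 and Ccr1, were higher (3.63% of all genes) and 1, Cxcl10, an interferon-induced T cell chemokine, was lower (4.67%). Of 14 cytokine genes 5 were higher, Il10, Il1a, Il1rn, Vegfa and Osm, against 3.63% of all genes, and none was lower, against 4.67%. Cxcl1 stood at 3182, 3134 and 1760.2 CPM against 403 and 795 CPM, with 2.29 ± 0.54 (adjusted p = 0.0339), and Ccl6 at 3852, 4206 and 3349.8 CPM against 1022 and 702 CPM, with 2.25 ± 0.31 (adjusted p = 0.00684). Il10, an anti-inflammatory cytokine, stood at 365, 167 and 195 CPM against 41.5 and 35.9 CPM, with 2.78 ± 0.45 (adjusted p = 0.0129). Of the 16 inflammatory monocyte genes 3, Vcan, Fn1 and Clec4e, were higher, against the same 3.63% of all genes, and none was lower. With all i4F macrophage clusters edgeR called 1 gene higher and 0 lower among all genes. Nearly all calls of the chemokine, cytokine and monocyte lists were thus lost there. The neutrophil growth factor Csf3 stood at 181, 170.2 and 144 CPM against 1.54 and 0.678 CPM, which in WT was 1 UMI in each mouse, and Timp1, a metalloprotease inhibitor, at 662, 659 and 292 CPM against 39.9 and 8.14 CPM.

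All 7 MHC class II genes were lower in i4F Macrophages_1 than in the WT clusters, against 4.67% of all genes, with a median log2 difference of -6.25. H2-Aa stood at 32.5, 32.4 and 442 CPM against 13328 and 10670.1 CPM, with -6.25 ± 1.03 (adjusted p = 0.0138), and Cd74, the invariant chain, at 257, 228 and 2176 CPM against 32829.6 and 31886 CPM, with -5.20 ± 0.85 (adjusted p = 0.0132). Every i4F mouse was below both WT mice for these 2 genes, which held for 20.8% of all genes. In both genes i4F 3 lay far above the other i4F mice, so the size of the difference depends on that mouse. The contrast depends on which cells each clustering named: 7 of 9 dendritic cell markers were lower too, such as Cd209a with 0, 4 and 1 UMIs in i4F and 182 and 274 UMIs in WT, and with Macrophages_2 and Macrophages_3 added to the i4F sums 0 of the 7 class II genes were called by edgeR, with 2 at an unadjusted p under 0.05 and a median of -2.07. All 7 were called among C1q end cells, which in i4F were Macrophages_1 cells alone, 3 without i4F 1 and 5 without i4F 2. The part of the dendritic cells in the difference was not tested.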

How the data were processed

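Pancreas cells of 7 mice were profiled by 10x 3′ single-cell RNA-seq. Per the labels and methods, the authors aligned reads to mm10 with Cell Ranger, merged each condition in Seurat v3, corrected free RNA with SoupX, and removed cells under 150 genes or over 5% mitochondrial UMIs. They clustered each condition separately (20 principal components, resolution 0.2). The deposited values are UMI counts per gene and cell, and whether they precede the SoupX correction is not given in the sources used here. The deposited percent columns, mitochondrial and ribosomal UMIs of each cell, came from the authors' Seurat objects. Doublet removal is not given in the sources used here, and no caller was run.

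UMI counts were summed by mouse over 1 cluster or several. Comparisons between conditions used edgeR 4.0.16 in R 4.3.3, with DESeq2 1.42.0 as an alternative. The edgeR fit used TMM, filterByExpr, quasi-likelihood, all 7 mice in 1 fit and a Benjamini-Hochberg threshold of 0.05. Its code was run on simulated counts with the same spread for every gene and no outlying mouse. That run does not cover the differences between the i4F mice. Shares were compared by exact permutation (scipy 1.17.1). Differences within mice used log2(CPM + 10). Genes were named from lists and as up to 10 per direction with the largest log2 difference, at least 50 CPM in the higher group and all mice of a group on one side. The members and lists were chosen with earlier results of these data known. Macrophage sums held 486304 to 22096255 UMIs, and the smaller sums limit low genes. The alternatives tried are given in the closing section. Promoter windows came from RefSeq on GRCm38.p6, where 51 of 63, 102 of 132 and 8 of 10 genes matched. Results of some listed genes are not reported here.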

Additional observations from a re-analysis of the deposited data

How the results depend on the processing

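The number of genes called between conditions depended on the cells and mice used, and the cause was not tested. Against caerulein, 472 higher and 175 lower genes became 1176 and 469 with no filter on low counts, 143 and 59 with all i4F macrophage clusters, and 897 and 451 with the largest macrophage cluster of each condition. The lower calls became 387 in cells with no UMI of the B cell, T and NK cell, acinar or other non-immune markers. Of the 15 acinar markers only 1, Amy2a5, was measured, so the acinar part of that filter was this gene alone. Neutrophil and dendritic cell markers were not part of that filter. In a fit of only the 2 groups the lower calls became 355. Leaving out 1 mouse gave 1 to 687 higher and 1 to 379 lower. Against WT, 446 and 573 became 1037 and 999 with no filter, 1 and 0 with all i4F macrophage clusters (2401 genes at an unadjusted p under 0.05 by edgeR), 295 and 365 at the C1q end alone (added after seeing the data), and 95 and 179 in a fit of only the 2 groups, with 372 lower for the largest clusters. Leaving out 1 mouse gave 27 to 727 higher and 43 to 911 lower. A mouse left alone in its group was assumed to vary like the others. With the letters that open the sample titles as a term, also added after seeing the data, edgeR called 0 and 0 against caerulein (1623 at an unadjusted p under 0.05) and 111 and 214 against WT. DESeq2 called 505 and 161 against caerulein, 480 and 542 against WT.

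The replicate block gave 216 higher and 32 lower against caerulein. Replicate numbers only name the mice, since same-numbered deviations correlated at -0.04 (i4F and caerulein) and -0.15 (i4F and WT).

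The middle share was 42.8% when placed by the 10-gene lists. Genes at least 2-fold higher at the Chil3 end (63) numbered 99 and 29 at pseudocounts of 1 and 50 CPM, 40 after thinning and 76 to 98 without 1 mouse. For the C1q end (132) these were 691 and 37, with 85 at a minimum of 50 CPM and 163 to 226 without 1 mouse. Against other immune clusters the 331 higher became 608, 137 and, without other macrophage clusters, 769, and 370 to 449 without 1 mouse. The 321 lower became 1064, 90, 505, with 201 at a minimum of 50 CPM, and 367 to 493 without 1 mouse.

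Some log2 differences changed sign. Against caerulein Spp1 was -0.089 with all clusters and -0.21 with the largest, and -0.78 to 0.51 without 1 mouse. C1qa was -0.021 with the largest cluster, and -0.0093 to 0.40 without 1 mouse. With the replicate block Cd74 was -0.45 and H2-Aa -0.47, and without 1 mouse they were -0.49 to 1.72 and -0.51 to 2.19. Against WT, with the largest clusters C1qa was -0.25, Isg15 -0.53 and Ifit3 -0.44, and at the C1q end Isg15 was -0.58 and Ifit3 -0.39, with Ifit3 at -0.056 to 0.71 without 1 mouse. Ccl17, called lower against WT, was 0.031 with all clusters. With the title letters as a term, differences against caerulein of the other sign were Reg3a -2.56, Slfn4 -5.40, Spp1 -2.07, Chil3 -3.59, Saa3 -12.9, Arg1 -4.37 and Nos2 -0.67 (Reg3a, Slfn4 and Nos2 were called higher without it), and Ifit3 was -0.079 against WT. Of the named genes' values under alternatives, 495 against caerulein and 514 against WT kept direction and side of the threshold, and 128 and 147 lost their call.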

Other observations

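Of 6 heat shock genes 2 were lower in i4F Macrophages_1 than in WT macrophage clusters by edgeR, against 4.67% of all genes. Dnajb1, a cochaperone, stood at 78.7, 78.5 and 127 CPM in i4F and 424 and 556 CPM in WT mice, with a log2 difference of -2.32 ± 0.26 (SE, adjusted p = 0.00343), and Hsph1 was lower as well. Of 8 immediate early genes 1, Fos, was lower, against the same 4.67%, and none was higher. Fos stood at 424, 389.5 and 962 CPM against 1601 and 2273 CPM, with -1.66 ± 0.34 (adjusted p = 0.0241). The WT mice were above every i4F mouse in these genes, which held for 20.8% of all genes. With all i4F macrophage clusters edgeR called 0 genes lower than in WT, so the calls of Dnajb1, Hsph1 and Fos were lost. Heat shock and immediate early genes also respond to tissue dissociation, whose part was not tested. Of 7 iron genes Ftl1, the ferritin light chain, was lower than in caerulein mice, against 1.43% of all genes, at 9737, 8604 and 11511 CPM against 23007 and 21677 CPM, with -1.15 ± 0.21 (adjusted p = 0.0229).

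Of the 8 suppressor genes tested Nos2 and Cd274 were higher than in caerulein mice, against 3.85% of all genes, and Lgals9 was higher than in WT mice, against 3.63%. Cd274, which encodes the checkpoint ligand PD-L1, stood at 58.6, 72.9 and 65.8 CPM in i4F and 17.5 and 13.2 CPM in caerulein mice, with 2.12 ± 0.34 (adjusted p = 0.0144, and 0.0665 without i4F 2). Nos2 was at 0 CPM in i4F 3 and had 1 and 0 UMIs in the caerulein mice. Its call was lost by DESeq2 (adjusted p = 0.0963), with all i4F macrophage clusters (0.0804), without i4F 2 (0.113) or either caerulein mouse (0.251 and 0.250), and with the title letters as a term of the fit. Of 12 cell cycle genes edgeR called 0 in either comparison, as did DESeq2, with 2 against caerulein and 1 against WT at an unadjusted p under 0.05 by edgeR.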
